A study of Mus musculus with 8 samples.

Results

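CCCTC-binding factor (CTCF) sites were printed on a DNA microarray as 2522 different probes, chosen as every printed sequence whose deposited name contains CTCF, among 122095 sequences on the array. The 2522 sequences filled 14540 of 175866 spots, with 5 to 35 spots and a median of 5 spots per sequence. They came in 2 sets. Numbered probes, 988 sequences on 4940 spots, carried 494 sites in both orientations. A variant set of 1536 sequences held 24 designed sites in both orientations (48 unmutated probes) and substitutions at each of 13 positions. The sets shared 2 sequences.

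The arrays were stained with Alexa 488 in a universal design of the UV-Bind assay, in which printed DNA is irradiated before a protein or antibody is applied. The 4 groups were CPD UV, CPD non-UV, 6-4PP UV and 6-4PP non-UV, with 2 arrays each. CPD arrays carried a mouse antibody against cyclobutane pyrimidine dimers at a dilution of 1 in 400, and 6-4PP arrays an antibody against 6-4 photoproducts at 1 in 80. Within an antibody the groups differed, per the labels, only in the UV condition of the array. No protein other than the antibody is named in the labels, so the probes report naked DNA. The sources used here give no UV dose, no staining protocol and no account of how the probes became double-stranded. Nothing in the labels says that the arrays of a group were irradiated separately, so p-values measure the spread between these arrays, which may be technical.

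CTCF is a zinc-finger protein that binds a long, GC-rich motif and organises chromatin loops and insulators. Ultraviolet light joins neighbouring pyrimidines on one strand. A CPD is a cyclobutane ring between them and forms most readily at TT, whereas a 6-4 photoproduct is a single bond between the bases and is known for TC and TT. Bound proteins can raise or lower this damage at particular bases of a site, and CTCF sites are known to carry many mutations in melanoma, so the yield on naked DNA is the natural baseline for such sites. In the text below a step means any TT, TC, CT or CC on either strand, the printed strand is the one synthesised on the array, and the motif strand is the one that reads CCA at positions 4 to 6 of most numbered sites.

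Every CTCF probe had 60 bases, of which the first 23 varied and the last 37 were shared. No step lay in the shared end or at its junction. The first sequences show the layout, with the 13-base core (positions 3 to 15 as the probe names number them) in capitals: site S1 unmutated in both orientations, then the shared end that follows each.
S1, motif strand printed: gcatgACCACCAGGTGTCgcacg
S1, opposite strand printed: atgcgtgcGACACCTGGTGGTca
shared end: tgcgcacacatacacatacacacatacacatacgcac
The next probes carried the highest CPD or 6-4PP signal among the numbered sites, or the lowest and highest number of steps, and are shown because the values below turn on them.
CTCF_404: tgcattgtGCCCTCTGGTGGTaa
CTCF_404_rev: tgcattACCACCAGAGGGCacaa
CTCF_445_rev: tgcatattGCCCTCTGGTGGCaa
CTCF_344_rev: gcattACCACTAGAGGGCactcg
CTCF_461: gcatcACCACTAGAGGGCactcg
CTCF_491: gcattACCAGTAGGTGGCactcg
CTCF_141: tgcatgGCCACCAGAGGGAgcta
S10 with G10C, opposite strand printed: atgcgtgcGCCATGTGGTGTAca
The last pairs show single substitutions with the largest effects, each unmutated probe after its variant.
S8 with G13T, motif strand printed: gcatgTACACCAGATTTCgcacg
S8 unmutated, motif strand printed: gcatgTACACCAGATGTCgcacg
S17 with C4T, opposite strand printed: atgcgtgcTACACCTGCTGATca
S17 unmutated, opposite strand printed: atgcgtgcTACACCTGCTGGTca
S23 with G10A, opposite strand printed: atgcgtgcTACACTTGCTGTAca
S23 unmutated, opposite strand printed: atgcgtgcTACACCTGCTGTAca

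The names were checked against the sequences. The string CCACNAG, searched on both strands, was present in 65.4% of the numbered probes and in 0.930% of all sequences, GGTGGC in 53.0% and 0.831%, and CCCTC in 43.3% and 1.61%. AGGGGGC was in 0 numbered probes and in 0.0565% of all sequences. The numbered cores had 73 different sequences. Each core was placed, and its motif strand chosen, by the best match to base frequencies. These started from the designed sites and were refitted to the numbered probes, so the placement favours shared bases. C at position 5, A at 9, G at 10 and G at 13 were present in 100% of the numbered cores. Position 3 was G in 62.8%, position 7 was C in 66.4% and G in 33.6%, position 8 was C in 64.4% and T in 27.7%, position 11 was A in 59.7% and G in 40.3%, and position 12 was T in 54.9% and G in 43.7%. The 24 designed sites combined 2 choices each at positions 3 to 4, 7 and 11 with 3 choices at positions 14 to 15. Of the variant names, 48 from 12 sites carried the unmutated sequence and entered no comparison with it. Probes whose names differ only by the ending rev held the same site in 247 of 494 numbers, so orientation pairs were found by sequence.

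The numbered CTCF sites were rich in steps but poor in TT. The numbered duplexes held 6 to 11 steps with a median of 8, against a median of 5 over all sequences. TT occurred in 141 of 494 numbered sites (28.5%), against 65.1% of all sequences. CC averaged 3.97 per numbered duplex and CT 2.91, against 1.26 and 1.22 over all sequences. TC was common in both, in 77.9% of the numbered sites and 75.8% of all sequences. Of 153 TT steps in the numbered sites, 36 lay inside the core and the rest in the flanks. The 24 unmutated designed sites held 4 to 6 steps with a median of 5, the same median as all sequences, and 0 TT steps. Steps were uneven between strands: TC occurred 398 times on the opposite strand of the numbered sites and 123 times on the motif strand, and CT 1134 and 305 times.

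One property of the arrays bears on all tests. Arrays of the CPD and 6-4PP antibodies with the same replicate number and the same UV condition deviated together over the CTCF sequences, with a Pearson r of 0.671 between the UV arrays and 0.748 between the non-UV arrays. Between UV and non-UV arrays of the same number r lay between 0.0147 and 0.0242. Over all spots the rank correlation (Spearman) of same-numbered arrays of 1 UV condition was lower than Pearson r. It was 0.43 against 0.71 for UV and 0.39 against 0.77 for non-UV arrays. The labels do not say what such arrays share. The fit below treats all 8 arrays as independent. Fits of 1 antibody at a time gave 368 probes called higher and 1959 lower for CPD, and 457 and 1427 for 6-4PP, close to the counts below. They gave fewer single-base pairs, as stated there. A fit of the antibody difference with these arrays paired is given beside that difference.

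UV raised the signal of CTCF probes with both antibodies, and less than that of the typical sequence. With the CPD antibody the median numbered probe had an intensity of 2470 and 2288 on the UV arrays, against 1240 and 1049 on the non-UV arrays, a 2.08-fold rise. Over all sequences the medians were 3733 and 3388 on CPD UV arrays, against 1231 and 1042 on CPD non-UV arrays, a 3.14-fold rise. With the 6-4PP antibody the median numbered probe had 5533 and 5472 on the UV arrays, against 1474 and 1229 on the non-UV arrays, a 4.09-fold rise, where all sequences rose 4.86-fold. Both UV arrays stood above both non-UV arrays in each of these medians. Sequences without any step (550 on the array) rose 1.42-fold with the CPD antibody and 1.43-fold with the 6-4PP antibody. On the UV arrays the median numbered probe was 1.48 times as bright as the step-free median with the CPD antibody and 2.82 times with the 6-4PP antibody.

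From here a UV effect is the log2 ratio of UV over non-UV after each array was centred on its median over all sequences, so 0 is the rise of the median sequence. A negative effect means a smaller rise than that, and is not by itself a loss of signal. Among the 4 smallest CPD effects, named below, the uncentred UV over non-UV fold was 0.83 to 0.97, each with 1 bright non-UV array. Called means an adjusted p under 0.05 in limma, adjusted over all sequences on the array. With the CPD antibody 364 CTCF probes were called higher, where the background of all sequences was 39.5%, and 1957 were called lower, where it was 40.2%. With the 6-4PP antibody 492 were called higher (background 36.4%) and 1516 lower (background 39.9%). The median effect of the CTCF probes was -0.80 for CPD and -0.53 for 6-4PP, against -0.03 and -0.05 over all sequences. Both UV arrays lay below both non-UV arrays, relative to the array medians, in 2047 CTCF probes for CPD (background 46.3%) and in 1718 for 6-4PP (background 45.3%). These directions are relative to the array median: without centring, 2380 CTCF probes were called higher and 0 lower for CPD, and 2500 higher and 0 lower for 6-4PP, by limma. Quantile normalization, which gives all arrays 1 distribution, left 11 higher and 101 lower for CPD, 27 and 21 for 6-4PP, and 0 of the orientation and single-base pairs described below, by limma. At an unadjusted p under 0.05 those pairs then numbered 145 and 252 for CPD and 142 and 202 for 6-4PP.

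The numbered sites divided by TT. Of the 706 numbered probes without TT, 3 were called higher and 636 lower for CPD, with a median effect of -0.79. Of the 282 with TT, 213 were called higher and 38 lower, with a median of 0.99. In intensity the TT probes had CPD medians of 8023 and 7013 on the UV arrays, against 1234 and 1051 on the non-UV arrays. The probes without TT had 2128 and 2043 on the CPD UV arrays, against 1243 and 1049 on the CPD non-UV arrays. All 24 probes with 2 TT steps were called higher for CPD, with a median of 1.42. For 6-4PP the division was less sharp: 180 probes with TT were called higher and 62 lower, and 83 without TT were called higher and 426 lower.

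For 6-4PP the number of TC steps ordered the probes that lack TT. The median effect was -0.89 for 130 probes with 0 TC, -0.46 for 374 with 1, -0.04 for 180 with 2 and 0.57 for 22 with 3. Their median intensities on the 2 UV arrays were 3543 and 3626 for 0 TC, 4978 and 4949 for 1, 6356 and 6566 for 2, and 9758 and 9607 for 3. The ranges of neighbouring classes overlapped, for example -1.67 to -0.26 for 0 TC and -1.58 to 1.09 for 1. No such order was present for CPD, where the 4 medians were -0.81, -0.77, -0.82 and -0.76. Other steps of these probes differed along with TC, and their part was not tested.

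The median CPD effect was higher with TT on the printed strand than on the complement strand at each place in the site, by amounts that differed widely. Among numbered probes with 1 TT, the 129 with it on the printed strand had a median CPD effect of 1.11 and 120 were called higher. The 129 with it on the complement strand had a median of 0.52, with 69 called higher and 38 lower. The place of the TT divided them further. A TT on the opposite strand at positions 8 and 9, inside the core (32 pairs of probes, read CTTG or CTTC), gave a median of 0.58 where it was printed and -0.44 where it was on the complement strand. At positions 2 and 3 of the opposite strand (22 pairs, GTTA or GTTG) the medians were 1.33 printed and -0.33 complement. At positions 1 and 2 of the motif strand (52 pairs, ATTA or ATTG) they were 1.28 printed and 1.23 complement, nearly equal. In these last probes the complement TT lay at base 22 from the 5′ end of the probe, next to the shared end, whereas in the probes with GTTA or GTTG it lay at bases 5 to 6. Place in the probe and flanking bases cannot be told apart here.

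The same TT steps stood in a different order for 6-4PP. The TT at positions 1 and 2 of the motif strand gave medians of 0.80 printed and 0.81 complement. The TT at positions 2 and 3 of the opposite strand gave -0.29 printed and -0.55 complement, below the array median, although its printed form was the highest of the 3 for CPD. The TT at positions 8 and 9 gave 0.61 printed and -0.59 complement.

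By CPD effect the 6 leading probes all held 2 TT steps. CTCF_404 had 19183 and 16194 on CPD UV arrays, against 1273 and 1032 on CPD non-UV arrays, an effect of 2.29 ± 0.09 (SE, limma, 2 arrays each). Its other orientation, CTCF_404_rev, had 16739 and 15057 on CPD UV arrays, against 1195 and 1074 on CPD non-UV arrays. Both also ranked high for 6-4PP, with effects of 1.90 and 1.61. CTCF_445_rev, with TT in both flanks, had 15478 and 14045 on CPD UV arrays, against 1216 and 1011 on CPD non-UV arrays. The other three were variants: G13T in S2 and S12 with the motif strand printed, and G10A in S24 with the opposite strand printed, on CPD UV arrays between 13680 and 16761.

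Of the 6 leading 6-4PP probes, 4 held no TT. CTCF_344_rev had 31017 and 31326 on 6-4PP UV arrays, against 1535 and 1469 on 6-4PP non-UV arrays, an effect of 2.09 ± 0.12 (SE). CTCF_461 differs from it at 1 base, base 5 from the 5′ end, where ATC replaces ATT. It thus lacks the TT of the flank but holds 3 TC steps, against 2 in CTCF_344_rev. CTCF_461 had 24017 and 25944 on 6-4PP UV arrays, against 1406 and 1193 on 6-4PP non-UV arrays. The CPD antibody separated the same 2 probes more widely, with 9886 and 9736 for CTCF_344_rev and 3244 and 3099 for CTCF_461 on UV arrays. CTCF_491 had 25419 and 26345 on 6-4PP UV arrays, against 1530 and 1202 on 6-4PP non-UV arrays. C4T with the opposite strand printed supplied the remaining leaders, in S2, S14 and S16, with 23163 to 28052 on 6-4PP UV arrays.

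The lowest probes lay close to the step-free sequences, whose medians on the UV arrays were 1617 and 1603 for CPD and 1954 and 1952 for 6-4PP. S24 with G10T, opposite strand printed, held 2 steps and had 2164 and 2300 on 6-4PP UV arrays, against 2231 and 2001 on 6-4PP non-UV arrays, an effect of -2.20. S23 with G10T, motif strand printed, had 1720 and 1904 on 6-4PP UV arrays, against 1804 and 1207 on 6-4PP non-UV arrays. The UV and non-UV intensities of both overlapped, so no rise was detectable in either. Both 6-4PP non-UV values of S24 with G10T lay above the array medians of 1511 and 1231, so its effect rests partly on a high non-UV level. For S23 with G10T this held on non-UV array 1 only. The other low ones rest partly on 1 bright non-UV array each. S16 with C8G, motif strand printed, had 1436 and 1376 on CPD UV arrays, against 2900 and 991 on CPD non-UV arrays, and its CPD effect of -1.92 was -1.27 without the brighter one. For S10 with C8G, S9 with T3G and S22 with T3G, also with the motif strand printed, CPD effects of -1.84, -1.73 and -1.69 became -1.25, -1.32 and -1.22 without the brighter non-UV array, and S22 then missed the threshold. For 6-4PP, S11 and S15 with G10C, motif strand printed, had effects of -2.17 and -2.15, and -1.63 and -1.81 without non-UV array 2.

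The probes named for the fewest steps, taken by name order among ties, and for the most steps did not mark the ends of the scale. For 6-4PP, other probes with 2 steps did lie lowest. S24 with G10T, S11 with G10C and S23 with G10T, at 2 steps each, were among the 4 smallest effects. S10 with G10C had 2 steps, both CC, and with the opposite strand printed it gave 1610 and 1719 on CPD UV arrays, against 1171 and 1280 on CPD non-UV arrays. CTCF_141 held 11 steps, none of them TT, and had 2208 and 2006 on CPD UV arrays, against 1191 and 968 on CPD non-UV arrays, well under the array median. With the 6-4PP antibody CTCF_141 had 6053 and 5667 on UV arrays, against 1450 and 1063 on non-UV arrays, an effect of -0.04 that was not called. CTCF_141_rev, with the same steps on the other strand, had 9423 and 10678 on 6-4PP UV arrays and an effect of 0.61, which was called.

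The 48 unmutated probes of the designed sites hold no TT and share their flanks, but many differ from the numbered sites in the core. Position 4 was A in 12 of the 24 designed sites and in 0.2% of the numbered cores. Position 14 was T in 16 designed sites and in 1.0% of the numbered cores, and position 15 was A in 8 and in 2.0%. Intensities below are the lowest, median and highest of the 48 probes. On the CPD UV arrays they were 1558, 1953 and 2525 on array 1 and 1480, 1827 and 2695 on array 2. On the CPD non-UV arrays they were 1205, 1244 and 1503 on array 1 and 1018, 1056 and 1284 on array 2. On the 6-4PP UV arrays they were 2025, 3469 and 7152 on array 1 and 2090, 3471 and 7505 on array 2. On the 6-4PP non-UV arrays they were 1361, 1488 and 1715 on array 1 and 1134, 1229 and 1656 on array 2. The UV and non-UV ranges did not overlap for 6-4PP, and for CPD the lowest probe on UV array 2 came within the range of non-UV array 1. All 48 were called lower than the array median for CPD, and 41 for 6-4PP.

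Among unmutated sites the mean 6-4PP level differed most by the base at position 11. A at this position gives a TC on the opposite strand, preceded by A, where G gives a CC. In the 12 pairs of unmutated sites that differ only there, G11A raised 6-4PP by 0.73 ± 0.14 (SD over sites) with the opposite strand printed, called in 12 of 12, and by 0.44 ± 0.08 with the motif strand printed, called in 8 of 12. The same exchange moved CPD by 0.13 and 0.04 and was called in 0 of 24. C7G gave a mean 6-4PP difference of -0.13 with the opposite strand printed, called in 0 of 12, and of -0.27 with the motif strand printed, called lower in 3 of 12.

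Single-base pairs read the effect of 1 position within a fixed flank. The 1744 pairs comprised 1664 of a variant and its unmutated site and 80 of 2 unmutated sites, 51 substitutions in 2 orientations, tested among 53434 such pairs on the array. Tokens give the unmutated base, the position in the core numbering on the motif strand and the new base. For CPD 372 pairs were called higher (background 19.7%) and 18 lower (background 9.84%). For 6-4PP 491 were called higher (background 23.7%) and 185 lower (background 16.6%). The lower calls were less stable than the higher ones: in fits of 1 antibody at a time 4 pairs were called lower for CPD and 115 for 6-4PP, against 340 and 399 called higher. Leaving out 1 CPD array left 1 to 10 lower for CPD, and leaving out either 6-4PP UV array left 6 for CPD and 115 or 116 for 6-4PP.

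For CPD most pairs that rose were pairs that gained a TT, 325 of the 372. Of 204 pairs with a TT gained on the printed strand, 201 were called higher, with a median of 1.40 and a lowest value of 0.57. Of 204 with a TT gained on the complement strand only, 124 were called higher, with a median of 0.47. Of the 1336 pairs that gained none, 47 were called higher and 18 lower, with a median of -0.01. Gaining 2 TT steps on the printed strand gave a median of 2.50 over 40 pairs, against 1.34 over 164 pairs that gained 1. On the complement strand the medians were 0.88 and 0.38.

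Along the site, CPD rose at every site with the opposite strand printed for T3A, C4A, C5A and C7A, and with the motif strand printed for A11T, G11T, G13T and A15T, the orientations that print the new TT. G11T was called at every site in both orientations. G10A, whose TT lies on the opposite strand, was called in 23 of 24 sites with that strand printed and in 24 of 24 with the motif strand printed. C5A raised CPD by a mean of 2.03 ± 0.70 (SD over 24 sites) with the opposite strand printed and 0.49 ± 0.28 with the motif strand printed. G13T gave 2.40 ± 0.60 with the motif strand printed and 0.77 ± 0.25 with the opposite strand printed. C4A gave 1.31 ± 0.13 with the opposite strand printed and 0.13 ± 0.10 with the motif strand printed, where 1 of 12 was called. Of 102 combinations of substitution and orientation, 56 had no called site for CPD. For a single TT gained on the printed strand the median was 1.05 at probe base 6 (A4T, GTTC) and 1.39 at base 20 (C4A and T3A, GTTC). On the complement strand GTTC gave 0.24 at base 20 and 0.14 at base 6.

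The largest CPD difference was S8 with G13T, motif strand printed. It had 14785 and 14242 on CPD UV arrays, against 1847 and 1757 for its unmutated probe on the same arrays. On the CPD non-UV arrays the variant had 1229 and 1085 and the unmutated probe 1444 and 1095. The difference of 3.13 ± 0.13 (SE) had a limma adjusted p of 3.0505e-05. G13T in S2, S12 and S16 followed with 3.09, 3.01 and 2.95. In the first 3 of these the variant reads ATTTC or ATTTA on the motif strand, with 2 TT steps gained.

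For 6-4PP, C4T had the largest mean difference in each orientation. It raised 6-4PP by a mean of 2.11 ± 0.34 (SD over 12 sites) with the opposite strand printed and 1.54 ± 0.11 with the motif strand printed, called in 12 of 12 each, and makes the string GATC, in which both strands read ATC. For CPD the same substitution gave 0.22 and 0.14. C7T, which makes ATC on the motif strand, gave 1.49 ± 0.25 with the motif strand printed and 1.07 ± 0.24 with the opposite strand printed, again 12 of 12 each, and 0 called for CPD. S17 with C4T, opposite strand printed, had 24432 and 23615 on 6-4PP UV arrays, against 4205 and 4108 for its unmutated probe on the same arrays. The 6-4PP non-UV values were 1600 and 1459 for the variant and 1529 and 1265 for the unmutated probe. Its difference of 2.39 ± 0.09 (SE) had a limma adjusted p of 4.9228e-05, and S3 and S5 with C4T had 2.39 each.

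6-4PP also moved with the base before a TC that was already present. With the opposite strand printed, the unmutated sites with C at position 4 end in GGT before the flank and so read GTC there. C4G changes this to CTC, which also adds a CT on that strand and removes a CC from the motif strand. It raised 6-4PP by 1.43 ± 0.24, called in 12 of 12. With the motif strand printed the same exchange lies on the complement strand, and C4G gave 0.17 ± 0.16, called in 0 of 12. C4A changes the GTC to TTC, which adds a TT and removes the same CC. It gave 0.02 ± 0.12 with the opposite strand printed, called in 0 of 12, while its CPD mean was 1.31. The part of these step changes was not tested. With the motif strand printed C4A gave -0.15 ± 0.10 for 6-4PP, called lower in 1 of 12. Where the number and kind of steps stayed the same, T12C changed ATC to GTC on the opposite strand and lowered 6-4PP by a median of -1.11 with that strand printed (12 of 12 called lower) and of -0.57 on the complement strand (11 of 12). G13A made the reverse exchange on the motif strand of 8 sites and raised 6-4PP by a median of 1.31 printed (7 of 8 called) and 0.39 on the complement strand (4 of 8). For CPD these exchanges were called in 2 of 40 pairs.

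Several substitutions at positions 10 and 11 lowered 6-4PP, with and without the loss of a TC. A11C, which removes the ATC of the opposite strand, gave -1.17 ± 0.16 with that strand printed and -0.60 ± 0.11 with the motif strand printed, called lower in 12 of 12 each. A11T gave -0.82 ± 0.16 and was called in 12 of 12 with the opposite strand printed, and in that orientation its mean CPD difference was 0.48, called higher in 9 of 12, with a TT made on the motif strand. G10C and G10T lowered 6-4PP by -0.91 and -0.88 with the opposite strand printed, called in 22 and 23 of 24. In the 12 sites where a TC is lost their medians were -1.31 and -1.25, called in 12 of 12 each. In the 12 sites with G at position 11 no TC is lost, but a CC and a CT of the opposite strand are. The medians of G10C and G10T there were -0.53 and -0.49, called in 10 and 11 of 12. G10A at the same position makes TT on the opposite strand, and its means with that strand printed were 1.97 for CPD, called in 23 of 24, and 1.28 for 6-4PP, called in 21 of 24. S23 with G10A had the largest single-base 6-4PP difference, 2.41 ± 0.12 (SE, limma adjusted p 5.4439e-05), with 12598 and 12993 on 6-4PP UV arrays, against 2946 and 3136 for its unmutated probe. Of 184 pairs that lost a TC and gained neither TT nor TC, 77 were called lower and 0 higher for 6-4PP. Of 360 that gained a TC without a TT, 209 were called higher and 0 lower.

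The signal differed between the orientations of a site. Printing the other strand also moves the site within the probe, so strand and place in the probe are not separated here. The 1261 orientation pairs hold the same site and the same steps, printed once as the motif strand and once as the opposite strand, and the pairs tested on the array were 1270 in all, so the background is the CTCF pairs themselves. For CPD 83 pairs were called higher with the motif strand printed (background 6.54%) and 309 lower (background 24.6%). For 6-4PP 75 were called higher (background 5.98%) and 736 lower (background 58.2%). The median difference, motif strand minus opposite strand printed, was -0.19 for CPD and -0.47 for 6-4PP.

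For the numbered sites most called pairs were lower with the motif strand printed, and the count changed with the strand that carries the step. Where TT lay on the opposite strand only, 63 of 71 pairs were called lower for CPD with the motif strand printed, 0 higher, and the median was -1.05. Where it lay on the motif strand only, 14 of 63 were called higher and 3 lower, with a median of 0.05 and 46 not called. Without TT, 31 of 353 were called lower and 17 higher for CPD. For 6-4PP, where TC lay on the opposite strand only and TT was absent, 122 of 195 pairs were called lower and 0 higher, with a median of -0.50. Where it lay on the motif strand only, 11 of 38 were lower and 10 higher, with a median of -0.09. In 65 pairs without TT or TC, 27 were lower and 1 higher for 6-4PP. The unmutated sites gave 6 of 24 called lower for CPD and 20 of 24 for 6-4PP, and 0 called higher for either.

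The largest orientation differences for CPD were 3 sites with C5A, which makes TTT on the opposite strand. S20 with C5A had 2439 and 2260 on CPD UV arrays with the motif strand printed, against 14667 and 11325 with the opposite strand printed. On CPD non-UV arrays the values were 1238 and 1071, against 1215 and 1052. The difference was -2.48 ± 0.13 (SE, limma adjusted p 3.9986e-05), and S21 and S22 with C5A had -2.39 and -2.38. For 6-4PP, S15 with C4G had 2530 and 2307 on UV arrays with the motif strand printed, against 14126 and 11536 with the opposite strand printed, a difference of -2.59. S15 with C5G followed with -2.33. The third, CTCF_125 against CTCF_125_rev, had 21149 and 21326 on 6-4PP UV arrays with the motif strand printed, against 12146 and 11062. Its difference of 2.28 rests on a single array: CTCF_125_rev had 1504 and 7704 on the 6-4PP non-UV arrays, and without non-UV array 2 the difference was 0.91 with a limma adjusted p of 0.13.

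Set against each other, the antibodies parted at the same substitutions. The CPD minus 6-4PP difference of the UV effects was called toward CPD in 418 CTCF probes (background 33.6%) and toward 6-4PP in 673 (background 18.1%). With arrays of the same number and UV condition paired, these counts were 506 and 770. They were 58 and 1111 without centring, 59 and 387 after normexp, 0 and 0 after quantile normalization (287 at an unadjusted p under 0.05, limma), and 276 and 543 without CPD non-UV array 1. Without the dimmest 25 percent of sequences 255 lay toward CPD. The median difference was -0.05, against 0.29 over all sequences. The TT-free numbered probes had 17 called toward CPD and 247 toward 6-4PP, the unmutated probes 3 and 13, and the variants 289 and 399. Of the numbered probes with TT, 109 were called toward CPD and 14 toward 6-4PP. Furthest toward CPD were S17 with G13T (2.47), S9 with C5A (2.39) and S23 with G13T (2.35). S9 with C5A, opposite strand printed, had 14312 and 13051 on CPD UV arrays, against 1212 and 1076 on CPD non-UV arrays. Its 6-4PP values were 4914 and 5021 on UV arrays, against 1530 and 1289 on non-UV arrays. Furthest toward 6-4PP were C4T in S2 (-2.57), S16 (-2.49) and S13 (-2.46), all with the opposite strand printed. S2 with C4T had 2430 and 2243 on CPD UV arrays, against 1220 and 1035 on CPD non-UV arrays, while on 6-4PP UV arrays it reached 28052 and 25790.

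A least-squares count of steps summarised the 2522 probes on each array. The coefficients are log2 units per step, given as the mean ± SD of 2 arrays, with no test. On the CPD UV arrays a TT added 1.46 ± 0.05 on the printed strand and 0.69 ± 0.05 on the complement strand. CT added 0.19 ± 0.02 printed and 0.082 on the complement strand. TC gave -0.0041 and -0.048, and CC 0.037 and 0.0051. On the 6-4PP UV arrays a TT added 0.75 ± 0.01 printed and 0.33 ± 0.01 on the complement strand, TC 0.51 ± 0.01 and 0.29 ± 0.01, CT 0.24 and 0.043, and CC 0.14 and 0.079. For each of TT, CT and CC, and for TC with 6-4PP, the printed strand had the larger coefficient. The 8 counts took up 77.0% of the variance between probes on the CPD UV arrays and 49.0% on the 6-4PP UV arrays.

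The same 8 counts, fitted to the other 119573 sequences, gave levels for the numbered CTCF probes that lay above the observed ones for 6-4PP and close to them for CPD. On the CPD UV arrays the observed median was -0.58 ± 0.02 (SD, 2 arrays) relative to the array median, where the counts gave -0.50 ± 0.05. On the 6-4PP UV arrays it was -0.27 ± 0.01, where the counts gave -0.08 ± 0.02. A gap in the same direction was present without UV. On the non-UV arrays the observed median was 0.01 for CPD and -0.02 for 6-4PP, where the counts gave 0.06 for each. Across the 988 probes the observed and computed levels correlated with r of 0.833 for CPD and 0.583 for 6-4PP, as a description over probes that share much of the core and the 3′ end.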

How the data were processed

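Per the file headers, the deposited values are Alexa 488 intensities of single spots on a linear scale. The adjusted intensity that the authors deposited is the scanner intensity times a constant of the array, divided by the median of the neighbouring spots, so broad gradients across an array are removed. It was not background-subtracted. The sources used here do not name the software. The log2 of the adjusted intensity was averaged over the spots of a sequence and centred on the array median. Centring removes the overall rise with UV, so effects are relative to it. Spots without a printed sequence were left out.

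The fit used limma 3.58.1 (lmFit and eBayes, R 4.3.3) with 4 group means over 8 arrays, and Benjamini-Hochberg adjustment over all sequences, or over all orientation pairs or single-base pairs on the array. The fit was tested on simulated data: changes of log2 0.5 were called in 84% of 50 sequences (CPD UV against CPD non-UV, 122095 sequences) and in 72% of 50 single-base pairs (53434 pairs). Changes of log2 0.2 were called in 42% and 8%. Of 500 unchanged sequences 10 were called, and of 500 unchanged pairs 3. The simulated arrays varied independently, whereas same-numbered arrays of the 2 antibodies and 1 UV condition deviated together. Descriptions used Python 3.11.15, numpy 2.4.6 and pandas 2.3.3. Orientation pairs needed at least 21 reverse-complementary bases.

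Named sequences were, per antibody, the 6 largest and 4 smallest called effects whose UV arrays lay on 1 side of both non-UV arrays, the 3 most extreme antibody differences each way, the 2 sequences with the fewest and the 2 with the most steps, and the 3 orientation and 4 single-base pairs with the largest differences. Members, lists and rules were chosen with earlier results of these data known. The number of arrays limits the precision. Same-numbered UV and non-UV arrays did not deviate together (Pearson r over all sequences 0.000791 for CPD and -0.00324 for 6-4PP), so replicate numbers were not used to pair them. Alternatives covered the intensity column, background, scaling, log offset, saturated and dim spots, spot summary, the fit and each array left out. The probe names give no genomic coordinates, so positions refer to the probe.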

Additional observations from a re-analysis of the deposited data

Results flagged for a closer look

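The UV effect differed between the antibodies, by the interaction term in limma, most in 6 CTCF probes. S17 with G13T (CTCF_S17_P_13_B_G_to_T_rev) had a CPD minus 6-4PP difference of 2.472, S9 with C5A (CTCF_S9_P_5_B_C_to_A) of 2.388 and S23 with G13T (CTCF_S23_P_13_B_G_to_T_rev) of 2.353. In the other direction S2 with C4T (CTCF_S2_P_4_B_C_to_T) had -2.573, S16 with C4T (CTCF_S16_P_4_B_C_to_T) -2.494 and S13 with C4T (CTCF_S13_P_4_B_C_to_T) -2.456. The limma adjusted p was 0.00028121 for 5 of these and 0.00028611 for S23 with G13T. The first 3 hold 2 TT steps each and the last 3 hold 0.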

How the results depend on the processing

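The 2 arrays per group and 1 pair of antibodies limit what the tests can show, and dim probes lie close to the signal of arrays without UV. Leaving out 1 array at a time gave 335 to 374 CTCF probes called higher and 1831 to 1969 lower for CPD, 439 to 486 and 1380 to 1491 for 6-4PP, and 276 to 424 toward CPD and 543 to 650 toward 6-4PP. Orientation pairs called were 287 to 426 for CPD and 644 to 803 for 6-4PP, and single-base pairs 288 to 392 and 504 to 631. The replicate block gave 370 higher and 1968 lower for CPD and 497 and 1524 for 6-4PP, and it changed no count by over 1.5 times.

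No centring made 2380 probes higher and 0 lower for CPD, 2500 and 0 for 6-4PP, and 58 toward CPD and 1111 toward 6-4PP. Quantile normalization forces UV and non-UV arrays to 1 distribution and left 11 higher and 101 lower for CPD, 27 and 21 for 6-4PP, 0 and 0 for the antibody difference, and 0 pairs of either kind for either antibody. At an unadjusted p under 0.05, limma then gave 844 probes for CPD, 413 for 6-4PP and 287 for the difference, 145 and 142 orientation pairs, and 252 and 202 single-base pairs. Normexp gave 232 higher and 837 lower for 6-4PP, 59 toward CPD and 387 toward 6-4PP, and 338 orientation and 406 single-base pairs for 6-4PP. Without the dimmest 25 percent, where fewer sequences were tested, 951 probes were lower for CPD and 498 for 6-4PP, 255 lay toward CPD, and 193 orientation and 141 single-base pairs were called for CPD, 297 and 191 for 6-4PP. The cause of the shifts under normexp was not tested.

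The CPD coefficient of TT on the printed strand, UV minus non-UV, was 1.46, and 2.40 under normexp, 0.78 under quantile normalization, 1.37 without dim sequences, 1.35 with G and C content, 1.57 in numbered probes alone (an alternative chosen after seeing the data, as was the pairing of the antibodies' arrays) and 1.08 with strands summed. The 6-4PP coefficient of TC on the printed strand was 0.51, and 0.82 under normexp, 0.26 under quantile normalization, 0.37 without dim sequences, 0.46 in numbered probes alone and 0.40 with strands summed. Several small coefficients changed sign: CPD TC on the printed strand was 0.028 under normexp and 0.0018 with G and C content, CPD CC on the printed strand -0.023 under quantile normalization and -0.15 in numbered probes, CPD CC on the complement strand -0.0050 under normexp and -0.15 in numbered probes, and CPD CT on the complement strand -0.017 in numbered probes. For 6-4PP in numbered probes, CC was -0.028 printed and -0.055 on the complement strand, and CT on the complement strand -0.074.

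Among 48 values of named sequences, 823 alternatives kept direction and side of the threshold, 57 lost the call and 17 changed sign. No centring turned 6-4PP effects to 0.078 for S24 with G10T, 0.11 for S11 with G10C, 0.14 for S15 with G10C and 0.29 for S23 with G10T. For S10 with G10C it gave CPD 0.44 and 6-4PP 0.58 with the opposite strand printed, and 0.71 and 0.97 with the motif strand printed. For CTCF_141 it gave CPD 0.97 and 6-4PP 2.24, and for CTCF_141_rev CPD 0.89. Quantile normalization gave CTCF_141 CPD 0.077 and 6-4PP 0.43, normexp 6-4PP 0.46 and the median over spots 0.029. Without 1 6-4PP array CTCF_141 ranged between -0.12 and 0.033.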
